A study of Mus musculus with 24 samples.

Results

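The genes of glycolysis and of the response to low oxygen were followed in mouse mammospheres as a group of 39 genes, chosen by symbol from a list, out of 15323 symbols listed in at least 1 of 6 tables of RNA sequencing. All 39 were listed in each of the 6 tables. By role they comprised 17 genes of glucose uptake and the glycolytic steps, 7 genes that handle lactate, pyruvate and fructose-2,6-bisphosphate, 14 genes that low oxygen induces outside glycolysis, and Hif1a, the gene for the oxygen-regulated subunit of HIF-1.

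Mammospheres are floating spheres grown from mammary cells in serum-free medium with EGF and FGF, passaged by dissociation and replating. Polyadenylated RNA of 24 libraries in 8 groups was sequenced, from mice of the FVB/Hsd strain. Wild-type spheres infected with a lentivirus for Myc-ER, a fusion of Myc with an oestrogen receptor part (3 libraries), were set against wild-type spheres infected with the empty vector pWPI (3 libraries), both at passage 3 and 72 hours after plating. Spheres from mammary tumours of MMTV-ErbB2 mice 12 to 15 weeks old (5 libraries, not infected, passages 6 to 7) and from Trp53 knockout glands (2 libraries, not infected, passages 6 to 7) were set against that same empty-vector group. Tumour spheres given 2.5 µM Nutlin-3, which blocks the binding of Mdm2 to p53, for 72 hours (3 libraries) were set against 3 of the untreated tumour libraries, paired by tumour. Wild-type cells of passage 1 sorted as high for the dye PKH (2 libraries) were set against cells sorted as negative (3 libraries), neither infected. PKH labels membranes and is diluted by division, so that the cells high for it are those that divided little. PKH-negative cells infected with Myc-ER and grown to passage 3 (3 libraries) were set against the same uninfected PKH-negative cells of passage 1. Donors of all groups other than the tumours were 7 weeks old.

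Several properties of these models bear on every value. The MMTV promoter drives the transgene in mammary epithelium, and no ligand for the Myc-ER fusion is named in the labels. Genotype, passage and infection differ together in the tumour and knockout comparisons, and donor age differs with them in the tumour one. Infection and passage differ together in the PKH-negative one. Its Myc-ER cells were taken 72 hours after plating, while its control cells are labelled as isolated by sorting, with no time after plating. The effects of factors that differ together cannot be told apart. Of the keratin and adhesion genes that define mammary epithelium, Krt5, Krt14, Krt17, Krt8, Krt19, Epcam and Cdh1 were not listed in the 2 tumour tables. In the comparison with Myc-ER, Krt8 (1032) and Epcam (579) were counted in the same empty-vector spheres. Their absence from the comparison of tumour with empty-vector spheres therefore does not by itself show a lack of expression. The Nutlin-3 comparison holds tumour spheres only, and genes with a mean of 10 or less were dropped. Genes missing there may have had such a mean, and their level in tumour spheres is not given. Krt18 was listed and did not pass in tumour spheres (175 against 733 in empty-vector spheres, adjusted p = 0.0725). The other 2 luminal markers listed fell there, Kit (55.9 against 1917, adjusted p = 7.16e-23) and Elf5 (0 against 78.4, adjusted p = 2.94e-10). The fibroblast markers were abundant, with a summed mean of 344842 normalised counts in tumour spheres and 463993 in empty-vector spheres. In bulk libraries, fewer cells of a type and less RNA per cell cannot be told apart.

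Glycolysis splits glucose into pyruvate in the cytosol, and pyruvate is either reduced to lactate or oxidised in mitochondria. When oxygen is plentiful, prolyl hydroxylases of the Egln family mark HIF-1 alpha for destruction through the Vhl ubiquitin ligase. When oxygen is low the protein persists, pairs with Arnt and binds DNA at a short core sequence, raising most glycolytic enzymes together with genes for blood vessel growth, acid export, collagen hydroxylation and the removal of mitochondria. Myc binds the related E-box and is known to raise several of the same enzymes, lactate dehydrogenase A among them. In human breast tumours, glucose uptake and HIF targets such as VEGFA and CA9 are often raised.

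The letters that HIF recognises are common in the promoters of these genes. RefSeq promoters (GRCm38.p6, 250 bases before to 50 after a start) were found for 35 of the 39 genes, with 49 promoters in all; Ero1l was matched under its current symbol Ero1a. The HIF core ACGTG or GCGTG, on either strand, was in 81.6% of the 49 promoters, against 61.8% of 11986 promoters of symbols listed in all 6 tables and 43.8% of all 32851 promoters in the reference. The E-box CACGTG, which contains ACGTG on both strands, was in 12.2%, against 9.86% and 7.15%. Of the 35 genes, Eno2, Gpi1 and Tpi1 had neither core in the promoters searched. Below are 7 promoters of genes whose values carry the results, on the strand of the gene, with either core, or its reverse complement, in capitals. The first 3 hold the full E-box and the other 4 do not.
Ldha chr7:46845554-46845853 (plus strand): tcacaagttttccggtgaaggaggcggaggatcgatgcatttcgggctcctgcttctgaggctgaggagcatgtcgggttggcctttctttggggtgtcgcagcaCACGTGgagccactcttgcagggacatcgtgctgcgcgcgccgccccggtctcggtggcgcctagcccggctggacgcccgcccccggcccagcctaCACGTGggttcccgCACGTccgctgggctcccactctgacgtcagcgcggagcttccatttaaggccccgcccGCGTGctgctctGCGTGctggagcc
Slc16a1 chr3:104638414-104638713 (plus strand): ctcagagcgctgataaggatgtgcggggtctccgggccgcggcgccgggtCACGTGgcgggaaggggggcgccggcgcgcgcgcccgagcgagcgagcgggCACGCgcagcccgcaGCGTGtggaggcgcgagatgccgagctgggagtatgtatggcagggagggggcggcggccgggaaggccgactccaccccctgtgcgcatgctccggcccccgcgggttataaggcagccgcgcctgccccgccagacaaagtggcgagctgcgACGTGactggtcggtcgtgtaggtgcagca
Bnip3 chr7:138909457-138909756 (minus strand): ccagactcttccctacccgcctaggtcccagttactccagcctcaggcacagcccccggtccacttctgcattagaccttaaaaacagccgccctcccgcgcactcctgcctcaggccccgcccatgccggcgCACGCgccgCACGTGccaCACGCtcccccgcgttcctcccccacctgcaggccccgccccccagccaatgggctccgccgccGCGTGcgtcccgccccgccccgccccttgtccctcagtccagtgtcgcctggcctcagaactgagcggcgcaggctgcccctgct
Slc16a3 chr11:120948817-120949116 (plus strand): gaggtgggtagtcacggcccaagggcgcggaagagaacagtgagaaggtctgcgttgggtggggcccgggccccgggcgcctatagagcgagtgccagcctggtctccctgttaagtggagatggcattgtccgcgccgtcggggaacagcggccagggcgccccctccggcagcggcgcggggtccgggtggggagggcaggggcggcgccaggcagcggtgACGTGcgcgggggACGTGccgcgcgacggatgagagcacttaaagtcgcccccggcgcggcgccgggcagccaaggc
Egln3 chr12:54203825-54204124 (minus strand): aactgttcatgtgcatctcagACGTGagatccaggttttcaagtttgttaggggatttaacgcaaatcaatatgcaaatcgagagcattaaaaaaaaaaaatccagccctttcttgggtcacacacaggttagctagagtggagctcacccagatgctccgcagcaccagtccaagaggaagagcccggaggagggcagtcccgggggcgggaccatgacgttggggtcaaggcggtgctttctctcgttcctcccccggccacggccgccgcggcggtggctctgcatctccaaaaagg
Adm chr7:110627407-110627706 (plus strand): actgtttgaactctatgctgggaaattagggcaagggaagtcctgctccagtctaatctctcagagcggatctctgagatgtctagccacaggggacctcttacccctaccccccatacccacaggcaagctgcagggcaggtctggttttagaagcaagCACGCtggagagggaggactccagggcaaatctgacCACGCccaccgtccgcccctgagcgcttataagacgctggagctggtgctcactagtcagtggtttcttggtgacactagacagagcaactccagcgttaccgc
Pdk1 chr2:71872974-71873273 (plus strand): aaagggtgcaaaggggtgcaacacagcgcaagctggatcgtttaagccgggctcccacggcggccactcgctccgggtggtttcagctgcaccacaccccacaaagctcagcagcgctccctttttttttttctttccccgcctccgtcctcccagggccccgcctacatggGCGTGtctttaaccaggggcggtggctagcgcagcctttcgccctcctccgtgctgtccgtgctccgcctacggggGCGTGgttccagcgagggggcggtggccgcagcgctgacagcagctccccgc
A match in these letters describes the sequence and does not show binding. The 6 genes with an E-box in the promoters searched were Ldha, Slc16a1, Bnip3, Pfkm, Pfkfb3 and Hif1a, and they did not move alike. In unsorted Myc-ER spheres Ldha, Pfkm and Pfkfb3 were called higher and Bnip3 lower, and Slc16a1 and Hif1a did not pass.

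Means, log2 fold changes and adjusted p-values are the authors' own, each read from the authors' deposited table of its comparison. A mean is the average of normalised read counts over the libraries of a group, with no value per library. The spread between libraries therefore enters only through the authors' p-values and cannot be read from them directly. The words rose, fell and called are used where the authors' DESeq2 adjusted p over all genes of that table was below 0.05. After ± stands a standard error worked out from the fold change and its deposited p-value. It is absent for Nutlin-3, where the deposited fold change is a mean over pairs.

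The comparisons differed more in how many of the 39 genes fell than in how many rose. In PKH-high cells 30 fell and 1 rose, where 30.7% of all 13959 listed genes were called (15.6% higher and 15.1% lower). With Myc-ER in PKH-negative cells 24 fell and 2 rose, where 37.5% of 14382 were called (18.9% higher and 18.5% lower). With Myc-ER in unsorted spheres 17 fell and 6 rose, where 50.8% of 13873 were called (26.7% higher and 24.1% lower). In Trp53 knockout spheres 9 fell and 8 rose, where 45.9% of 14699 were called (22.3% higher and 23.6% lower). In ErbB2-tumour spheres 3 fell and 6 rose, where 27.1% of 13288 were called (13.5% higher and 13.6% lower). With Nutlin-3, 7 fell and 2 rose, where 14.7% of 13038 were called (7.71% higher and 7.03% lower). Most of the 39 genes are strongly expressed, and 33 or 34 of them had a mean of at least 1000 in each table. Among all genes at that level the shares called were 27.8%, 39%, 59.5%, 44.6%, 23.5% and 19.6%, in the order just given. The share of the 39 genes called was 79.5% in PKH-high cells and 66.7% with Myc-ER in PKH-negative cells. For unsorted Myc-ER (59%), the knockout (43.6%), the tumour (23.1%) and Nutlin-3 (23.1%) the share lay within 4 percentage points of that of strongly expressed genes. By direction, unsorted Myc-ER spheres had 43.6% of the 39 genes lower and 15.4% higher, against 26.9% and 32.7% of strongly expressed genes. With Nutlin-3 17.9% were lower and 5.13% higher, against 8.38% and 11.2%. In the knockout (23.1% lower and 20.5% higher, against 21.6% and 23%) and the tumour (7.69% lower and 15.4% higher, against 9.79% and 13.8%) the shares by direction were near the background too.

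**Figure D1:**
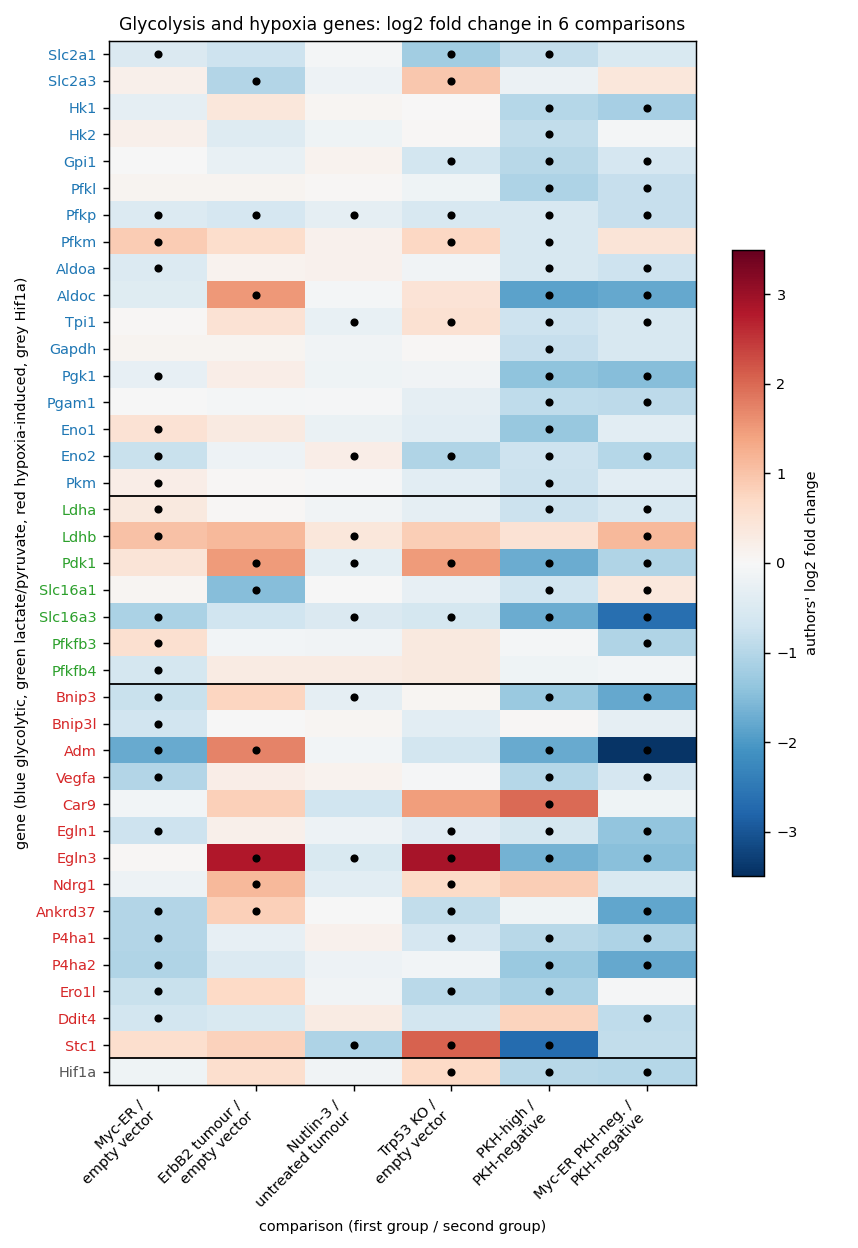
Authors' log2 fold changes of the 39 genes (rows, grouped by role) in the 6 comparisons (columns, first group over second); red is higher in the first group, blue lower, and a black dot marks an adjusted p below 0.05. The PKH-high column is blue in 34 of 39 rows, and the darkest red cells are Egln3 in tumour (2.81) and knockout (2.88) spheres.

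Every one of the 39 genes was called in at least 1 comparison. Pfkp, a phosphofructokinase isozyme, was called in all 6 and was lower each time. In all 6 comparisons together, 20 genes were called only as lower, 3 only as higher (Ldhb, Car9 and Ndrg1) and 16 in both directions. The same counts over all genes were not made. With up to 50.8% of all genes called in a single comparison, these numbers cannot be read as particular to the 39 genes.

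Glucose enters through facilitative transporters. Slc2a1 (GLUT1) fell in Myc-ER spheres to a mean of 10459, against 15098 with the empty vector (-0.52 ± 0.23, adjusted p = 0.0436). In knockout spheres it fell to 6535, against 15448 (-1.22 ± 0.31), and in PKH-high cells to 8759, against 15812 in PKH-negative cells (-0.85 ± 0.19). It was called higher nowhere. Slc2a3 (GLUT3), a transporter of higher affinity for glucose, went the other way in the knockout, at 2000 in knockout and 1035 in empty-vector spheres (0.95 ± 0.12). In tumour spheres Slc2a3 fell to 450, against 934 (-1.03 ± 0.35, adjusted p = 0.0151). Corrected for exon length, Slc2a3 made up 12.9% of the summed Slc2a1 and Slc2a3 level in knockout spheres and 3.14% in empty-vector spheres. Per exon length Slc2a1 had the higher level of the pair in every group.

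Hexokinases trap glucose as glucose 6-phosphate. Hk1 did not pass in the 4 unsorted comparisons and fell by 1.0 ± 0.15 on the log2 scale in PKH-high cells (7969 against 15960) and by 1.15 ± 0.20 with Myc-ER in PKH-negative cells (7649 against 17361). Hk2, the isozyme that hypoxia and Myc are known to raise, passed once: it fell to 1866 in PKH-high cells, against 3374 in PKH-negative cells (-0.85 ± 0.15). With Myc-ER its means were 3659 in Myc-ER and 3250 in empty-vector spheres (adjusted p = 0.398). The isomerase gene Gpi1 fell in PKH-high cells (-0.96 ± 0.14), with Myc-ER in PKH-negative cells (-0.59 ± 0.16) and in the knockout (-0.65 ± 0.15).

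Phosphofructokinase catalyses the committed step, and its isozymes were called in opposite directions in Myc-ER and in knockout spheres. Pfkm, the muscle form, had a mean of 2367 in Myc-ER and 1269 in empty-vector spheres (0.89 ± 0.14, adjusted p = 5.46e-09). It also rose in the knockout (2120 against 1293, 0.71 ± 0.15), where Pfkp fell (-0.55 ± 0.24, adjusted p = 0.0446), and fell in PKH-high cells (883 against 1306, -0.56 ± 0.16). The platelet form Pfkp fell in the same Myc-ER spheres to 5570, against 7727 (-0.47 ± 0.14), and the liver form Pfkl did not pass there (7910 against 7435, adjusted p = 0.662). Per exon length, Pfkm rose to 30.7% of the summed level of the 3 isozymes in Myc-ER spheres, against 18.4% in empty-vector spheres. Its share was also 30.9% in knockout spheres, against 18.3%. Pfkl fell by call only in the sorted cells, by 1.07 ± 0.17 in PKH-high cells and by 0.81 ± 0.28 with Myc-ER in PKH-negative cells.

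The aldolases split fructose 1,6-bisphosphate. Aldoa, the form of muscle and most proliferating cells, fell with Myc-ER (36237 against 50137, -0.47 ± 0.09), in PKH-high cells (-0.55 ± 0.10) and with Myc-ER in PKH-negative cells (-0.73 ± 0.14). Aldoc, the brain form, had low means and moved further. Its mean was 562 in tumour and 186 in empty-vector spheres (1.51 ± 0.59, adjusted p = 0.0422). It fell to 160 in PKH-high cells, against 603 in PKH-negative cells (-1.86 ± 0.36), and to 152 with Myc-ER in PKH-negative cells, against 656 without it (-1.80 ± 0.47).

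The lower part of the pathway yields ATP, and all 7 of its genes measured here fell in PKH-high cells. Pgk1, phosphoglycerate kinase (chrX:106187100-106203699 on GRCm38, plus strand), fell to 32079 in PKH-high cells, against 85447 in PKH-negative cells (-1.41 ± 0.14, adjusted p = 8.36e-23). With Myc-ER in PKH-negative cells it fell to 32108, against 92936 (-1.48 ± 0.24). In unsorted Myc-ER spheres Pgk1 was at 32649, against 39992 (-0.29 ± 0.13, adjusted p = 0.0448). Eno1 fell to 1446 in PKH-high cells, against 3632 (-1.32 ± 0.13, adjusted p = 3.4e-24). Gapdh, often used as a constant reference, fell to 54301 in PKH-high cells, against 94685 in PKH-negative cells (-0.80 ± 0.17), and did not pass in the other 5 comparisons. The isomerase gene Tpi1 (-0.72 ± 0.13), the mutase gene Pgam1 (-0.89 ± 0.13), the neuronal enolase gene Eno2 (-0.73 ± 0.14) and the pyruvate kinase gene Pkm (-0.77 ± 0.16) fell there too. With Myc-ER in PKH-negative cells Tpi1 (-0.55 ± 0.15), Pgam1 (-0.92 ± 0.10) and Eno2 (-0.99 ± 0.28) fell, and Pkm (-0.37 ± 0.18), Eno1 (-0.38 ± 0.28) and Gapdh (-0.55 ± 0.26) did not pass. The 17 genes gave 10 lower (58.8%, against 18.5% of all genes) and none higher in that comparison, with a median of -0.59. In all, 16 of the 17 glycolytic genes (94.1%, against 15.1% of all genes) fell in PKH-high cells and Slc2a3 did not pass. The median log2 fold change of the 17 was -0.85, where the median of all listed genes was 0.01. Their summed mean was 323047 in PKH-high and 587037 in PKH-negative cells, which is 0.832% and 1.34% of all normalised counts listed. Gapdh, Ldha, Pgk1 and Eno1 have near-identical copies elsewhere in the mouse genome, so that their counts depend on how such reads were assigned.

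In the unsorted comparisons single genes of the lower pathway moved in either direction. With Myc-ER, Eno1 rose (3209 against 2236, 0.52 ± 0.12) and so did Pkm (136367 against 116587, 0.23 ± 0.09), the gene with the highest counts of the 39, while Eno2 fell (3787 against 6579, -0.79 ± 0.11). In the knockout Eno2 fell as well (3220 against 6712, -1.05 ± 0.21), and Tpi1 rose (30060 against 20842, 0.53 ± 0.15). With Nutlin-3 the changes were small: Tpi1 fell (25773 against 30548 untreated, -0.25), Pfkp fell (3466 against 4266, -0.31) and Eno2 rose (5888 against 5053, 0.24). In tumour spheres the only glycolytic calls were Aldoc, Slc2a3 and Pfkp, the last at 4695 in tumour and 7125 in empty-vector spheres (-0.60 ± 0.15). By counts, the 17 genes gave 3 higher and 5 lower with Myc-ER (median -0.02), 1 and 2 in the tumour (0.10), 1 and 2 with Nutlin-3 (-0.06) and 3 and 4 in the knockout (-0.11). With Myc-ER these are 17.6% higher and 29.4% lower, against 26.7% and 24.1% of all genes. In the knockout they are 17.6% and 23.5%, against 22.3% and 23.6%. In the tumour they are 5.88% and 11.8%, against 13.5% and 13.6%. With Nutlin-3 they are 5.88% and 11.8%, against 7.71% and 7.03%.

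The fate of pyruvate is set by lactate dehydrogenase, by Pdk1, the kinase that shuts pyruvate dehydrogenase, and by the monocarboxylate transporters. Ldha, which favours lactate formation, had a mean of 53679 in Myc-ER and 41933 in empty-vector spheres (0.35 ± 0.13, adjusted p = 0.0119). With Myc-ER in PKH-negative cells it was called the other way, at 48811, against 72160 in uninfected PKH-negative cells (-0.55 ± 0.20, adjusted p = 0.0226). The difference between these 2 effects was not tested, and their control groups differ in passage, infection and sorting. In PKH-high cells Ldha fell to 39055, against 66342 (-0.76 ± 0.13).

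Ldhb, the heart form of the enzyme, was never called lower. Its mean was 2086 in Myc-ER and 1008 in empty-vector spheres (1.01 ± 0.29), and 1978 with Myc-ER in PKH-negative cells, against 867 without (1.13 ± 0.29). Nutlin-3 raised it to 2972, against 2441 untreated (0.39). In tumour spheres (2079 against 923, adjusted p = 0.0756), knockout spheres (1874 against 1023, adjusted p = 0.0564) and PKH-high cells (1134 against 797, adjusted p = 0.0663) the mean was higher but did not pass. Per exon length Ldhb was a minor part of the Ldha and Ldhb total throughout, at most 13.6% (with Nutlin-3) and at least 2.47% (in PKH-negative cells).

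Pdk1 was called in both directions. It rose in tumour spheres (2944 against 1023 in empty-vector spheres, 1.49 ± 0.37, adjusted p = 0.000491) and in knockout spheres (3175 against 1134, 1.48 ± 0.14, adjusted p = 1.07e-22). It fell with Nutlin-3 (2720 against 3434 untreated, -0.35), in PKH-high cells (740 against 2523, -1.73 ± 0.33) and with Myc-ER in PKH-negative cells (1226 against 2744, -1.05 ± 0.40). In unsorted Myc-ER spheres it did not pass (1535 against 1113, adjusted p = 0.124).

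The lactate exporter gene Slc16a3 (MCT4, a HIF target) fell in 5 of the 6 comparisons. Its means were 2562 in Myc-ER and 5605 in empty-vector spheres (-1.11 ± 0.21), 3691 in knockout and 5731 in empty-vector spheres (-0.63 ± 0.27), and 2505 with and 3686 without Nutlin-3 (-0.50). In PKH-high cells it was 2534, against 8580 in PKH-negative cells (-1.73 ± 0.28). With Myc-ER in PKH-negative cells it was 1411, against 9332 without (-2.63 ± 0.24, adjusted p = 2.35e-25). Tumour spheres did not pass (3120 against 5174, adjusted p = 0.254). Slc16a1 (MCT1), which carries lactate both ways and holds an E-box in the promoter printed above, fell in tumour spheres (1802 against 5149, -1.49 ± 0.35) and in PKH-high cells (2784 against 4527, -0.69 ± 0.27). It rose with Myc-ER in PKH-negative cells (6422 against 4923, 0.38 ± 0.13). Per exon length Slc16a3 was 15.5% of the summed level of the transporter pair with Myc-ER in PKH-negative cells and 61.2% in PKH-negative cells. In unsorted Myc-ER spheres it was 26.7%, and 45.3% with the empty vector.

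The Pfkfb enzymes set the level of fructose 2,6-bisphosphate, the activator of phosphofructokinase. Pfkfb3 rose in Myc-ER spheres (2304 against 1564, 0.55 ± 0.15) and fell with Myc-ER in PKH-negative cells (1562 against 3369, -1.06 ± 0.28). Pfkfb4 passed once, falling with Myc-ER in unsorted spheres to 551, against 852 (-0.61 ± 0.27, adjusted p = 0.0462). In PKH-high cells neither Pfkfb3 (2946 against 3097) nor Pfkfb4 (505 against 566) passed. Of the 7 lactate, pyruvate and fructose-2,6-bisphosphate genes, 3 rose and 2 fell with Myc-ER (42.9% and 28.6%, against 26.7% and 24.1% of all genes). With Myc-ER in PKH-negative cells 2 rose and 4 fell (28.6% and 57.1%, against 18.9% and 18.5%). In PKH-high cells 4 fell (57.1%, against 15.1%) and none rose. In the tumour 1 rose and 1 fell (14.3% each, against 13.5% and 13.6%), as in the knockout (against 22.3% and 23.6%). With Nutlin-3 1 rose and 2 fell (14.3% and 28.6%, against 7.71% and 7.03%).

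**Figure D2:**
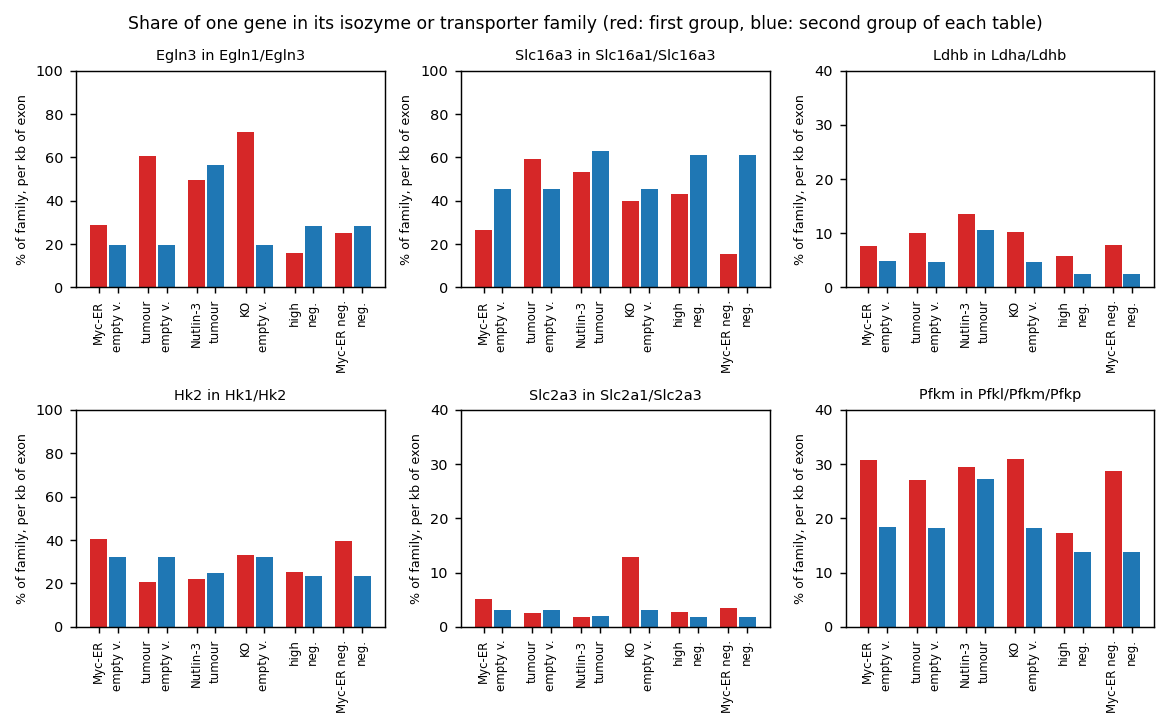
Share (percent, linear axes starting at 0, scaled to 100 or to 40) of one gene in the exon-length-corrected level of its family, from the authors' group means, in the first (red) and second (blue) group of each table. Egln3 makes up 60.8% and 71.8% of the Egln1 and Egln3 total in tumour and knockout spheres, against 19.4% with the empty vector; Slc16a3 drops to 15.5% with Myc-ER in PKH-negative cells.

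Among the 14 hypoxia-induced genes outside glycolysis, unsorted Myc-ER spheres had 10 called lower and none higher, with a median of -0.75. All genes of that table gave 24.1% lower and a median of -0.02. Adm, which encodes the vessel-dilating peptide adrenomedullin, fell furthest, to 315, against 1116 with the empty vector (-1.76 ± 0.28, adjusted p = 4.7e-09). Vegfa, the vascular growth factor gene, fell to 5724, against 11900 (-1.04 ± 0.21). The collagen prolyl hydroxylase genes fell together, P4ha1 to 9993, against 20422 (-1.01 ± 0.20), and P4ha2 to 2704, against 5638 (-1.06 ± 0.09, adjusted p = 3.4e-32). The mitophagy receptor genes Bnip3 (2493 against 4412, -0.79 ± 0.31) and Bnip3l (4126 against 6583, -0.67 ± 0.12), the oxygen sensor gene Egln1 (-0.71 ± 0.15), the ankyrin repeat gene Ankrd37 (-1.01 ± 0.38), the endoplasmic reticulum oxidase gene Ero1l (-0.78 ± 0.19) and the mTOR inhibitor gene Ddit4 (-0.63 ± 0.07) made up the rest. Egln3 (597 against 579), Stc1 (4124 against 2617, adjusted p = 0.329), Ndrg1 (2201 against 2489) and Car9 (9.75 against 10.7) did not pass. Markers of other cell types moved in the same direction: all 9 macrophage markers fell, with a summed mean of 1393 in Myc-ER and 3752 in empty-vector spheres, as did 4 of 7 endothelial (2029 against 5540) and 4 of 6 listed fibroblast markers (226062 against 489893). Among basal and luminal markers 1 of 6 and 1 of 7 fell. Fabp4, the only 1 of 5 adipocyte markers listed, rose (7606 against 4328). Their part in the result was not tested.

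In tumour spheres 4 of the 14 genes were called higher and none lower, with a median of 0.72, where 13.5% of all genes were called higher. Egln3, a prolyl hydroxylase gene that HIF itself strongly induces, reached 3886, against 534 with the empty vector (2.81 ± 0.35, adjusted p = 1.32e-13). Ndrg1, a stress-induced gene tied to growth arrest and differentiation, rose to 5109, against 2296 (1.15 ± 0.18), and Ankrd37 to 379, against 213 (0.83 ± 0.18). Adm rose to 3785, against 1031, with a wide error (1.74 ± 0.67, adjusted p = 0.0388). Bnip3 (6898 against 4067, adjusted p = 0.11), Ero1l (21334 against 12853, adjusted p = 0.433) and Stc1 (4280 against 2394, adjusted p = 0.249) had higher means that did not pass. Vegfa (13029 against 10988), P4ha1 (15282 against 18768) and P4ha2 (3716 against 5189) did not pass either. Macrophage markers were again lower, with 4 of the 6 listed called and a summed mean of 757 in tumour and 3332 in empty-vector spheres. All 3 listed endothelial markers fell (67.1 against 775), as did 2 of 3 luminal (231 against 2729), 1 of 2 basal (37 against 527) and 2 of 7 fibroblast markers, with Sox17 and Elf5 at 0 in tumour spheres. The fibroblast marker Pdgfra (46586 against 22270) and Fabp4, the only adipocyte marker listed (16334 against 3978), rose. Their part in the result was not tested.

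Nutlin-3 lowered 3 of the 14 genes and raised none, where 7.03% of all genes fell. Stc1, the gene for the secreted glycoprotein stanniocalcin-1 (chr14:69029238-69041804 on GRCm38, plus strand), fell to 2061, against 4690 untreated (-1.07, adjusted p = 6.87e-11). Egln3 fell to 2319, against 3397 (-0.53, adjusted p = 3.09e-05), and Bnip3 to 6844, against 8367 (-0.30, adjusted p = 0.0186). Adm, at 4547 with and 4571 without Nutlin-3, did not pass, nor did Vegfa (12816 against 11732). Of the 7 macrophage markers listed 1 rose, Cd68 (692 against 515, adjusted p = 0.0101), with a summed mean of 1881 with and 995 without Nutlin-3 and C1qc at 0 without it. Pdgfra, 1 of 7 fibroblast markers, fell (31453 against 42285, adjusted p = 2.81e-06). So did Fabp4, 1 of 4 adipocyte markers listed (15187 against 21696, adjusted p = 2.06e-05). No listed basal, luminal or endothelial marker was called. The part of these cell types in the result was not tested.

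In knockout spheres 3 of the 14 genes were higher (21.4%, against 22.3% of all genes) and 4 lower (28.6%, against 23.6%), with a median of -0.23, so that the counts lay near the background. Egln3 rose to 4752, against 592 in empty-vector spheres (2.88 ± 0.52, adjusted p = 3.31e-07), and Stc1 to 12408, against 2652 (2.06 ± 0.69, adjusted p = 0.0078). Ndrg1 rose to 4041, against 2543 (0.66 ± 0.22). In the opposite direction Ero1l fell to 7254, against 14238 (-0.96 ± 0.33), P4ha1 to 13736, against 20790 (-0.60 ± 0.16), Ankrd37 to 129, against 236 (-0.86 ± 0.24), and Egln1 to 2519, against 3316 (-0.39 ± 0.16). The paralogues Egln1 and Egln3 were thus called in opposite directions in the same spheres, and Egln3 made up 71.8% of their summed level per exon length in knockout spheres and 19.4% in empty-vector spheres. The 9 macrophage markers all fell here, with a summed mean of 128 in knockout and 3838 in empty-vector spheres, and 6 of 7 endothelial markers fell (168 against 5682). Tyrobp, Emr1, C1qa, C1qb and Sox17 were at 0 in knockout spheres. Epithelial markers fell too, 4 of the 5 basal (92.3 against 1520) and 5 of the 7 luminal ones (2378 against 5325), Epcam among them (7.88 against 596). The 7 fibroblast markers gave no call (468865 against 514026), and Fabp4, the only adipocyte marker listed, rose (10754 against 4407). Their part in the result was not tested.

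In PKH-high cells 9 of the 14 genes fell (64.3%, against 15.1% of all genes) and 1 rose (7.14%, against 15.6%), with a median of -0.99. Stc1 gave the strongest call of all 39 genes there, at 770 in PKH-high and 5091 in PKH-negative cells (-2.70 ± 0.22, adjusted p = 9.94e-34). Adm fell to 2074, against 7116 (-1.76 ± 0.24), Egln3 to 448, against 1450 (-1.67 ± 0.29), and Bnip3 to 4080, against 10070 (-1.29 ± 0.19). P4ha2 (-1.30 ± 0.14), Ero1l (-1.11 ± 0.18), Vegfa (-0.99 ± 0.14), P4ha1 (-0.98 ± 0.16) and Egln1 (-0.62 ± 0.14) completed the list. Car9, a carbonic anhydrase gene induced by HIF, was the one that rose, from a low level: its mean was 58 in PKH-high and 13.6 in PKH-negative cells (1.99 ± 0.51). Ddit4 (7991 against 4546, adjusted p = 0.173), Ndrg1 (7597 against 4106, adjusted p = 0.111) and Bnip3l (7588 against 7307) had higher means that did not pass, and Ankrd37 (359 against 396) did not pass either. The sorted populations also differed in cell type markers. In PKH-high cells all 9 macrophage markers rose (summed mean 46457 in PKH-high and 964 in PKH-negative cells), as did 6 of 7 endothelial (37696 against 1566), all 7 luminal (36888 against 1076) and 5 of 6 listed basal markers (14627 against 389). Of the fibroblast markers 4 of 7 fell (189460 against 334079). The part of these cell types in the fall of the glycolytic and hypoxia genes was not tested.

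With Myc-ER in PKH-negative cells 9 of the 14 genes fell (64.3%, against 18.5% of all genes), all 14 fold changes were below 0, and the median was -0.99. Adm gave the largest fold change of any of the 39 genes, at 451 with Myc-ER and 7740 without (-3.44 ± 0.49, adjusted p = 3.83e-11). The log2 ratio of these means is -4.10, larger in size than the deposited fold change. Ankrd37 fell to 109, against 431 (-1.83 ± 0.34), Bnip3 to 3053, against 10952 (-1.80 ± 0.21), and P4ha2 to 2376, against 8428 (-1.80 ± 0.15, adjusted p = 1.28e-32). Egln3 (499 against 1578, -1.45 ± 0.44), Egln1 (2033 against 5428, -1.39 ± 0.16), P4ha1 (-1.07 ± 0.19), Ddit4 (-0.90 ± 0.29) and Vegfa (-0.60 ± 0.19) fell too. Stc1, at 2854 against 5537, lay just outside the threshold (adjusted p = 0.05001), and Ero1l did not pass (14530 against 15150). The 4 macrophage markers listed summed to 1033 with Myc-ER and 1017 without, with Ptprc higher (99.1 against 11, adjusted p = 0.000372) and Csf1r lower (55.1 against 167, adjusted p = 5.03e-08), while 4 of 6 endothelial (607 against 1692) and 3 of 7 fibroblast markers (240786 against 363326) fell. Acta2, 1 of 5 basal markers, fell as well, as did Fabp4, 1 of 2 adipocyte markers listed (6000 against 17286). No luminal marker was called. Their part in the result was not tested.

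**Figure D3:**
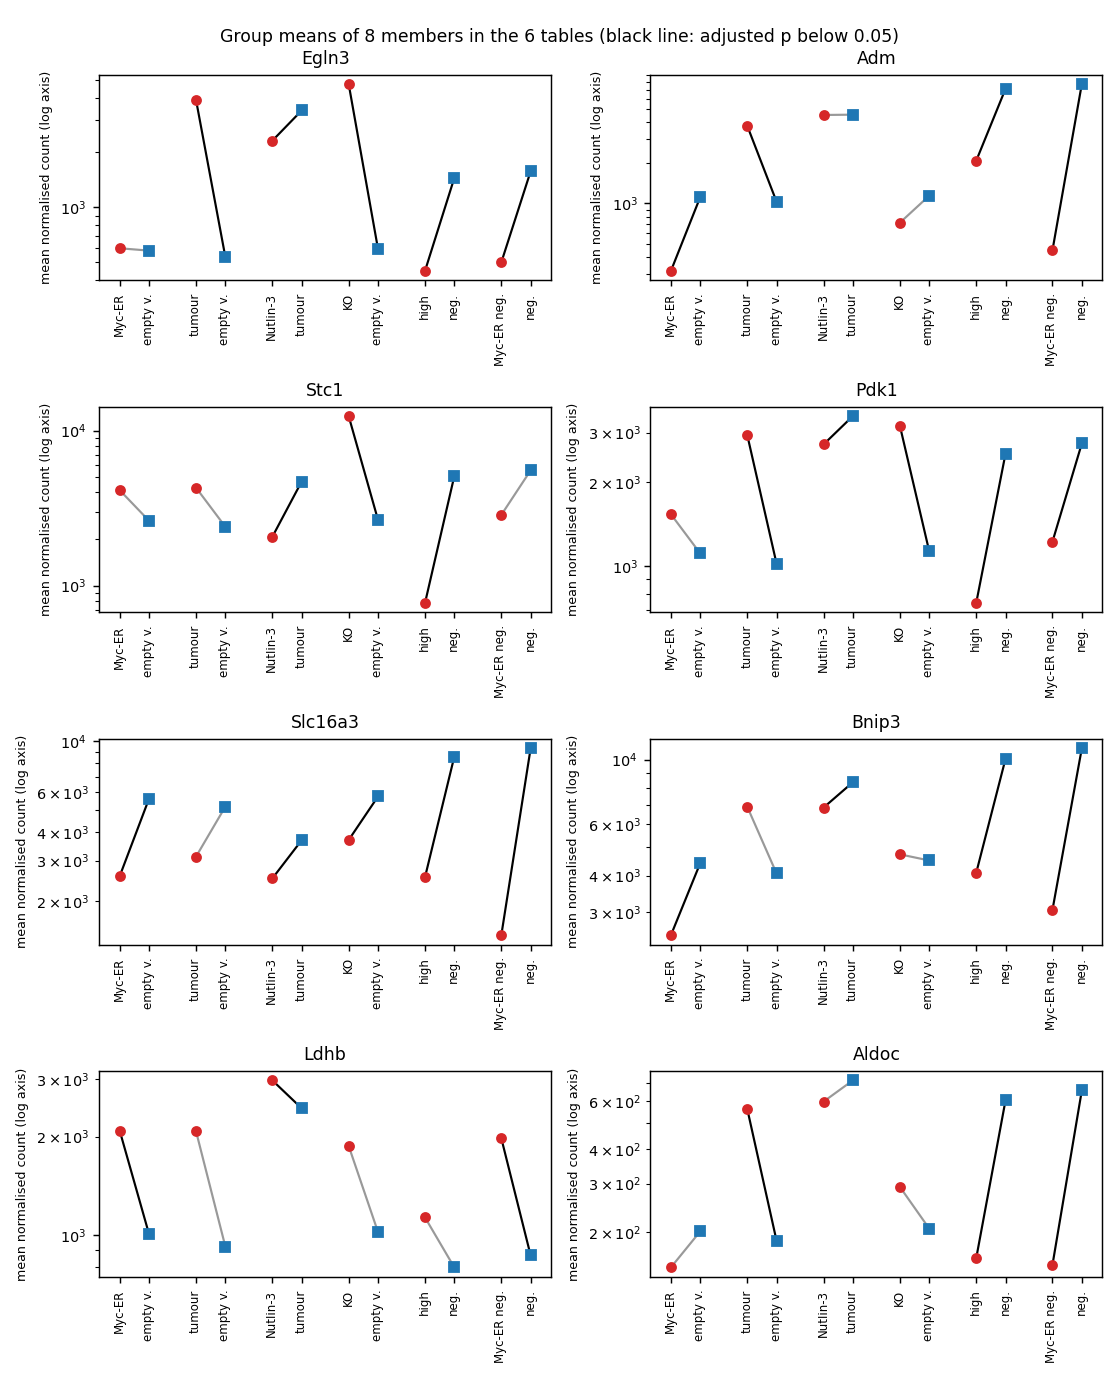
Authors' mean normalised counts (log axes) of 8 genes in the 6 tables; a red circle is the first group of a table, a blue square its second, and a black line marks an adjusted p below 0.05. Egln3 stands at 3886 and 4752 in tumour and knockout spheres, above 534 and 592 with the empty vector, while Slc16a3 is lower in the first group of every table.

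Hif1a, whose protein is controlled mainly by its stability, varied in its mRNA. It rose at the edge of the threshold in knockout spheres (15443 against 9490, 0.69 ± 0.30, adjusted p = 0.0482). It fell in PKH-high cells (7748 against 15221, -0.96 ± 0.24) and with Myc-ER in PKH-negative cells (8174 against 16556, -0.99 ± 0.22). With Myc-ER in unsorted spheres (8443 against 9307), in tumour spheres (13007 against 8567, adjusted p = 0.27) and with Nutlin-3 (11734 against 13061) it did not pass.

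Set side by side, the glycolytic enzymes and the other hypoxia-induced genes differed most in unsorted Myc-ER and tumour spheres. With Myc-ER the median of the 14 hypoxia-induced genes was -0.75, with 10 lower and none higher. The median of the 17 glycolytic genes was -0.02, with 5 lower and 3 higher. In tumour spheres the medians were 0.72 for the hypoxia-induced and 0.10 for the glycolytic genes. In PKH-high cells both lists were low, at -0.99 and -0.85, and with Myc-ER in PKH-negative cells at -0.99 and -0.59. The medians of Nutlin-3 (-0.15 and -0.06) and of the knockout (-0.23 and -0.11) were close to 0. In the knockout the hypoxia-induced genes ranged from -0.96 (Ero1l) to 2.88 (Egln3) and the glycolytic genes from -1.22 (Slc2a1) to 0.95 (Slc2a3). The gap between the lists was not tested, since genes are not replicates. The tumour, knockout and unsorted Myc-ER comparisons share the empty-vector libraries, and both PKH comparisons share the PKH-negative libraries, so that part of any likeness between them comes from the shared group.

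**Figure D4:**
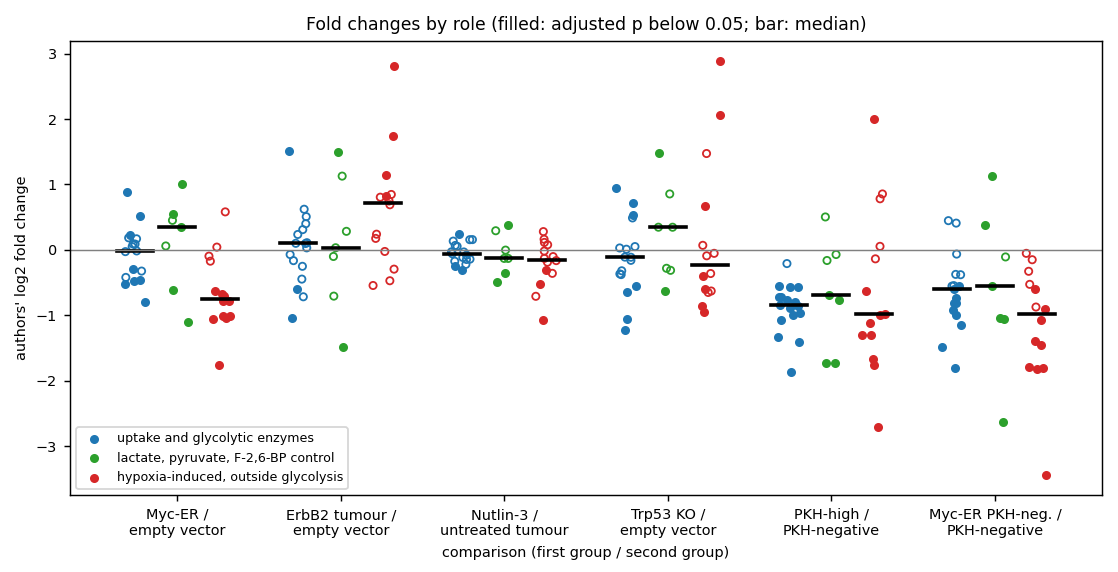
Authors' log2 fold changes (y axis) of the single genes by role in the 6 comparisons (first group over second); filled points have an adjusted p below 0.05 and black bars are medians. In unsorted Myc-ER spheres the hypoxia-induced genes (red, median -0.75) lie below the glycolytic genes (blue, median -0.02), and in PKH-high cells both lie below 0.

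Other genes of these pathways, taken from lists that are not part of the 39, gave further counts. Of 27 other hypoxia-induced genes 11 fell (40.7%, against 24.1% of all genes) and 7 rose (25.9%, against 26.7%) with Myc-ER, among them the collagen cross-linking enzyme gene Lox (11281 against 45403, -1.96 ± 0.23), the repressor gene Bhlhe41 (747 against 3154, -1.98 ± 0.33) and, upward, the carbonic anhydrase gene Car12 (4043 against 475, 2.86 ± 0.41). With Myc-ER in PKH-negative cells 16 of 27 fell (59.3%, against 18.5%) and 1 rose (3.7%, against 18.9%). The 1 that rose was Car12 again (2555 against 208, 3.46 ± 0.27), and Lox fell to 7731, against 40249 (-2.29 ± 0.25). In tumour spheres 9 of 26 of this list fell (34.6%, against 13.6%) and 2 rose (7.69%, against 13.5%). In the knockout 12 of 27 fell (44.4%, against 23.6%) and 2 rose (7.41%, against 22.3%). In PKH-high cells 9 of 27 fell (33.3%, against 15.1%) and 5 rose (18.5%, against 15.6%). The list thus had more genes lower than higher in tumour spheres, where the 14 genes described above had 4 higher and none lower. Nutlin-3 raised 6 of 26 (23.1%, against 7.71%) and lowered none, among them Car12 (141 against 64.9, 1.31), the haem oxygenase gene Hmox1 (12769 against 7144, 0.71) and the VEGF receptor gene Flt1 (10769 against 7972, 0.44).

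Of 14 components of the HIF pathway outside the 39 genes, 4 fell and 1 rose with Myc-ER in unsorted spheres, where 24.1% of all genes fell and 26.7% rose. Those lower were Arnt2, a partner of the alpha subunits (144 against 384, -1.24 ± 0.51), Vhl (-0.21 ± 0.09), the elongin gene Tceb2 (-0.34 ± 0.08) and Cited2 (-0.31 ± 0.08), and the asparagine hydroxylase gene Hif1an was higher (0.20 ± 0.07). The knockout and Myc-ER in PKH-negative cells each had 2 higher (14.3%) and 1 lower (7.14%). Of all genes 22.3% were higher and 23.6% lower in the knockout, and 18.9% and 18.5% with Myc-ER in PKH-negative cells. Nutlin-3 had 1 higher (7.14%, against 7.71%). Epas1, which encodes HIF-2 alpha, fell with Myc-ER in PKH-negative cells to 741, against 8678 (-3.44 ± 0.23, adjusted p = 2.52e-46), and in the knockout to 1201, against 6263 (-2.29 ± 0.51). Nutlin-3 raised it to 6683, against 4172 (0.76). Hif3a, the gene of another alpha subunit, rose in the knockout to 4166, against 1525 (1.45 ± 0.10). No component of the 14 was called in tumour spheres or in PKH-high cells, where 27.1% and 30.7% of all genes were called. Of 29 other glycolysis and pyruvate genes, 11 rose (37.9%, against 26.7% of all genes) and 6 fell (20.7%, against 24.1%) with Myc-ER, with the hexokinase domain gene Hkdc1 (95.1 against 16.6, 2.33 ± 0.40) and the pyruvate dehydrogenase kinase genes Pdk2 (204 against 411, -1.0 ± 0.13) and Pdk4 (116 against 242, -0.97 ± 0.44) moving furthest. In PKH-high cells, where 16 of the 17 glycolytic genes fell, 8 of these 29 rose (27.6%, against 15.6% of all genes) and 7 fell (24.1%, against 15.1%). The largest increases there were Hk3 (1143 against 6.09, 7.03 ± 0.54), a hexokinase of white blood cells, and the insulin-regulated transporter gene Slc2a4 (556 against 42.8, 3.30 ± 0.69). Macrophage, endothelial, luminal and basal markers were also higher in these cells, as given above, and their part in these increases was not tested. In the pentose phosphate branch of 8 genes, Tkt (transketolase) rose with Myc-ER (16858 against 9635, 0.81 ± 0.07) and H6pd, an enzyme of the endoplasmic reticulum, fell (9706 against 18207, -0.88 ± 0.28). H6pd fell in PKH-high cells (14409 against 32258, -1.16 ± 0.16) and with Myc-ER in PKH-negative cells (7103 against 35085, -2.26 ± 0.18).

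As checks of the labels, Myc had a mean of 16782 in Myc-ER and 2975 in empty-vector spheres, and 28517 with Myc-ER in PKH-negative cells against 5996 without. Trp53 was still counted in the knockout, at 2998, against 4207 with the empty vector, and the labels do not say which part of the gene was deleted, so this count is no check of the label. Erbb2 was lower in tumour spheres (736 against 1498), and the labels do not say whether transgene reads fall under this symbol.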

How the data were processed

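RNA sequencing of mammosphere cultures (TruSeq RNA v2 libraries of polyadenylated RNA, per the labels' protocols) was read from 6 tables, 1 per comparison. The submitters' processing notes name the build mm10 and the tools DESeq2 1.10.1, HTSeq 0.5.3p9, SAMtools 0.1.18, TopHat2 2.0.8, Bowtie2 2.1.0 and CASAVA 1.9. The authors deposited a signal per gene and group, the mean normalised count; genes with a mean of 10 or less were dropped by them, per the file headers. Log2 fold changes deposited by the authors are those of their DESeq2 contrast, except for Nutlin-3, where they are means over pairs (also per the file headers). Both the p-values and the adjusted p-values deposited are the authors' own. The adjusted values were checked to be Benjamini-Hochberg values over the listed genes.

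Values per library were not analysed here, so no test of samples was added, and depth is known only as summed means. These lay between 36651122 and 48054435 normalised counts per group and table. Replicates are biological, per the file headers. The p-values weigh the difference between groups against the spread between replicates as modelled by the authors, and do not measure that spread. The wild-type group of 3 tables was matched to the empty-vector group, since no other wild-type group was unsorted. From the table of the knockout, 3 entries that name no gene (28.2% of the knockout and 29.7% of the control sum) were left out. Tables were normalised separately, and levels are compared within a table.

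All 39 symbols matched GENCODE M21 (GRCm38), which gave the summed exon lengths for shares within a family. No source used here says whether counting used strand. The 39 genes and all lists were chosen with earlier results of these data known. Genes given with values are the called members, uncalled members where a family or list needed them, and up to 3 called genes of each other list with the largest fold change. Python 3.11.15, pandas 2.3.3, numpy 2.4.6 and scipy 1.17.1 were used, and the counting of calls was tested on simulated data with 200 changed genes. The alternatives were an adjusted p threshold of 0.01, a minimum mean of 100 with p-values readjusted, the direction from the ratio of the means, that ratio centred on the median gene, and a pseudocount of 1 added to the means.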

Additional observations from a re-analysis of the deposited data

How the results depend on the processing

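Of 48 recounted numbers of called genes, 43 stayed within 1.5 times the number reported. The recounts by the ratio of the means, centred or not, kept the authors' adjusted p and could change only the direction of a call. All numbers that moved came from the threshold of 0.01 or the minimum mean of 100. At a threshold of 0.01 on the adjusted p, Nutlin-3 kept 0 higher and 4 lower genes, the knockout 5 lower, and Myc-ER in PKH-negative cells 1 higher. With a minimum mean of 100, PKH-high cells had 0 higher, because Car9 was no longer tested. The ratio of the group means, its centring on the median gene and a pseudocount of 1 reversed no called fold change of the 39 genes. Each moved 1 of 234 beyond its error, Adm with Myc-ER in PKH-negative cells (log2 ratio -4.10, against -3.44 deposited). For Nutlin-3, which has no such error, a fixed limit on the log2 scale took its place. The median gene moved by at most 0.03 on the log2 scale, and the centring, which could change only directions, changed none. No paired analysis was possible because the tables hold group means only, and leaving out single replicates was not run for the same reason; whether 1 library decides a call is therefore not known. Reads per library, which set the precision of low means such as those of Car9, were not analysed here.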
